A study of Mus musculus with 10 samples.

Results

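The data described here are the second of 4 comparisons that stand side by side in a single deposited table of differential expression. It sets 2 unnamed RNA sequencing libraries, called the numerator, against another 2, called the reference. The base mean of a gene is its read count, corrected for library size and averaged over the 4 libraries. Genes were taken if their base mean reached 2 CPM, that is 2 when the comparison's base means are scaled to a sum of 1000000. This gave 13075 of the comparison's 30001 rows, out of 35395 gene identifiers in the whole table.

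Per the labels, the study sequenced RNA from the epididymal white fat of male C57BL/6 mice. Obese mice received adenovirus with IGF2 (Ad-IGF2, 2 samples) or with green fluorescent protein (Ad-GFP, 3 samples) in the fat. Young mice received lentivirus with a short hairpin RNA against IGF2 (IGF2-RNAi, 2 samples) or a control one (NC-RNAi, 3 samples) through the tail vein. None of these groups can be tied to the comparison: all 35395 identifiers are human, and 0 of the table's 24 value columns name one of the 10 samples. Genotype, treatment, age and tissue of the 4 libraries are therefore not known here, and nothing says whether the libraries of a side came from separate cultures or individuals. Any p-value then measures only the spread between these libraries, which may be technical.

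IGF2 encodes a growth factor that signals through the IGF1 and insulin receptors, while its other receptor, IGF2R, carries it to lysosomes for breakdown. White fat is defined by adipocytes, which store triglyceride behind a perilipin coat and secrete adiponectin and leptin. Several gene families named below act at the cell border: fibulins, laminins and collagens build the extracellular matrix, ADAMTS and MMP proteases cut it, and clustered protocadherins are adhesion proteins best known for giving neurons an individual surface.

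Whole reads per gene and library were recovered from the deposited base means, because each read of a library adds a fixed step to the base mean. Recovered totals were 28590576 and 16514913 reads in numerator libraries 1 and 2, against 16106644 and 16275032 reads in reference libraries 1 and 2. The library numbers are names only. Fold changes taken from the recovered reads differed from those of the authors' deposited table with an SD of 0.0054 on the log2 scale over 13074 genes. All values per library below are recovered reads divided by the library's size factor, called normalised reads, unless given in CPM, for which each library was scaled to 1000000 reads.

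The labelled tissue went against the markers. Of 12 adipocyte markers, 8 had a row in this comparison, and 0 of these reached 2 CPM. The adiponectin and leptin genes, ADIPOQ and LEP, had no row in this comparison, and the perilipin gene PLIN1 had at most 0.0621 CPM. The summed level of the 7 markers with recovered reads was 0.6995 and 0.727 CPM in the numerator, against 0.993 and 1.29 in the reference. The T and NK cell, hepatocyte and skeletal muscle lists also had 0 members at that level. High levels were found for the intermediate filament gene VIM, at 2495 and 4961 CPM in the numerator and 5443 and 6387 in the reference. KRT8, an epithelial keratin, had 479 and 402 CPM in the numerator and 548 and 616 in the reference, while the epithelial genes CDH1 and EPCAM reached at most 0.242 and 0.363 CPM, both in numerator library 2. None of the 12 marker lists fixed a cell type, and none is given to these libraries.

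The insulin-like growth factor genes did not pass the test. IGF2 itself had no row in this comparison, and its base mean was 0.545 in the authors' deposited table for the first comparison. IGF2R had 11336 and 9599.5 normalised reads in the numerator, against 6716 and 4225 in the reference. The sides did not overlap, as for 46.9% of all genes. Its log2 fold change in the authors' deposited table was 0.94 ± 0.35 (SE), with an adjusted p of 0.254. Of 18 members of the IGF and insulin signalling list, 0 were called at an adjusted p under 0.05 and 3 had an unadjusted p under 0.05.

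Numerator library 1 stood apart from the other 3 libraries. Over the 13075 genes, the Pearson correlation of log2 CPM (plus 1) was 0.930 between the numerator libraries, against 0.985 between the reference libraries. Numerator library 2 correlated at 0.980 and 0.958 with the reference libraries, and numerator library 1 at 0.928 and 0.903. These correlations are descriptions across genes, which are not independent replicates. Normalised reads were over 2-fold apart for 15.6% of genes between the numerator libraries and for 1.36% between the reference libraries. In chi-square tests of counts, the value per degree of freedom was 156 for the numerator pair and 30.6 for the reference pair, so neither pair was a single library deposited 2 times.

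**Figure D1:**
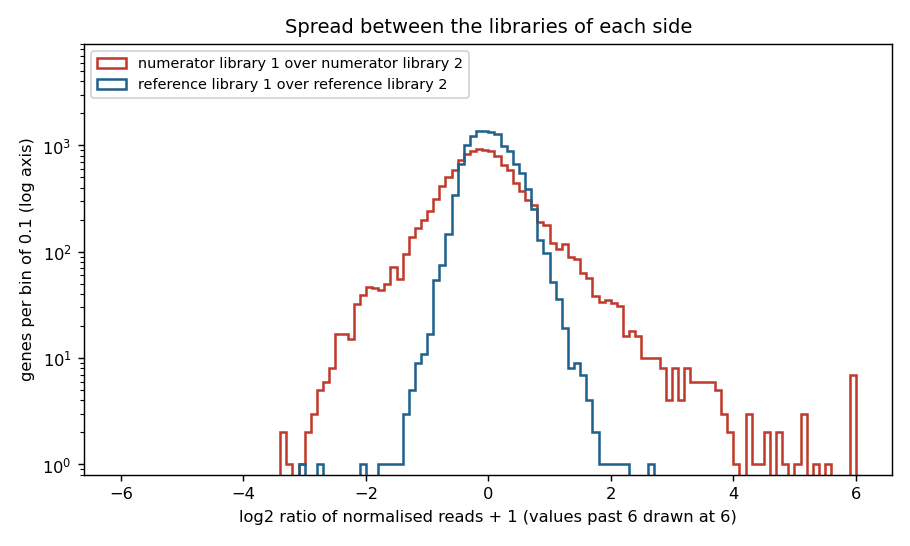
Number of genes (log axis) by the log2 ratio of normalised reads between the 2 libraries of each side, for the numerator and the reference. The numerator curve is wider, with 981 genes over 2-fold higher and 1063 over 2-fold lower in library 1 than in library 2, while 178 genes were over 2-fold apart between the reference libraries.

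The genes furthest apart between the numerator libraries, picked after their values were seen, were lower in the other 3 libraries of this comparison. PRSS35, a secreted protein of the serine protease family, had 9426 and 15.2 normalised reads in the numerator, against 46.4 and 45.9 in the reference. RANBP3L, a Ran-binding protein, had 2616 and 1.17 in the numerator, against 2.32 and 3.53 in the reference. TNFSF15, a cytokine of the TNF family, had 2201 and 0 in the numerator, against 6.96 and 5.88 in the reference. RPL21P119, a processed copy of a ribosomal protein gene whose reads can be shared with its parent, had 849 and 0 in the numerator, against 1.16 and 2.35 in the reference. Numerator library 1 alone was high in each. RPL21P119 also had 48.5 CPM in library 2 of the numerator of the fourth comparison. None of these genes was called: the adjusted p in the authors' deposited table was 0.255 for PRSS35, 0.127 for RANBP3L, 0.506 for TNFSF15 and 0.447 for RPL21P119. Without numerator library 1, the limma log2 fold change was -1.57 for PRSS35 (adjusted p = 0.0333) and -0.98 for RANBP3L (adjusted p = 0.743), each below 0, against 6.68 and 8.81 in the authors' deposited table. TNFSF15 and RPL21P119 then had 0 numerator reads against at most 6 and 2 in a reference library, so that their limma values of -3.58 and -1.96 depend on the prior count and are no measured folds.

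At an adjusted p under 0.05, 127 of 13075 genes were called in the authors' deposited table, which is 0.971% of those tested. Of these, 89 (0.681%) were higher in the numerator and 38 (0.291%) were lower. The log2 fold changes of the called genes in the authors' deposited table spanned 1.19 to 5.01 upwards and -1.25 to -10.04 downwards. The median over all 13075 genes in the authors' deposited table was -0.00 with a median standard error of 0.38. All 127 called genes had sides that did not overlap, beside 46.9% of all genes with such sides and 0.971% called. Among the 89 higher genes, numerator library 1 was over 2-fold above library 2 in 34 and over 2-fold below it in 1. Among the 38 lower genes those counts were 5 and 6.

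Leaving out a library changed the count of calls. With limma on the recovered reads, 5 genes were called with all 4 libraries (0.0382%), 559 without numerator library 1 (4.28%) and 3409 without numerator library 2 (26.1%). No gene was called by limma without reference library 1 or without reference library 2, where 643 and 138 genes had an unadjusted p under 0.05. In a fit with 1 library on a side, that library is assumed to vary like the other side. Of 121 called genes that carry a gene name and are not left out for other reasons, 121 kept their direction in all 5 fits. That outcome was fixed in advance, because the sides of every called gene did not overlap.

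The minimum of 2 CPM, a base mean of 37.2, was a convention. OR51B2 and OR51B8P lay just inside it, with log2 fold changes of -0.12 and -1.47 in the authors' deposited table. BBS1 and SNORA33 lay just outside it, with -0.06 and -0.10. A gene low on a side reaches the minimum only through the other side, which favours fold changes away from the low side. Called rises of this kind included SH3PXD2B, MAF, ADAMTS13 and ZNF208. Their reference means were 2.34, 8.77, 11.7 and 15.7.

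**Figure D2:**
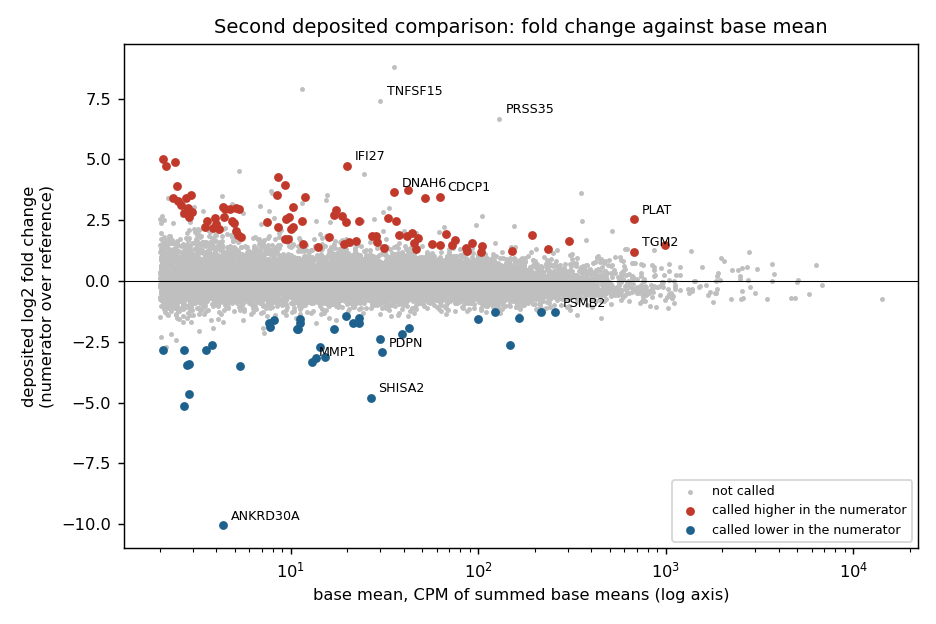
Deposited log2 fold change of the numerator over the reference against base mean in CPM (log axis) for 13075 genes. Called genes are coloured; PRSS35 and TNFSF15, without a call, lie above every called gene, and ANKRD30A, which had 0 numerator reads, lies lowest.

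Among genes lower in the numerator, several were close to silent there. SHISA2, an endoplasmic reticulum protein that holds back Wnt and FGF receptors, had 39.3 and 29.2 normalised reads in the numerator, against 1069 and 861 in the reference. Its fall in the authors' deposited table was -4.80 ± 0.39 (log2, SE), with an adjusted p of 8.82e-30, the smallest of all. ANKRD30A, an ankyrin repeat protein known as a breast antigen, had 0 and 0 reads in the numerator, against 168 and 156 normalised reads in the reference. Against a floor of 3 reads over the 2 numerator libraries, it was at least 135-fold lower. SH3RF3, a scaffold with a RING domain, had 3.03 and 2.33 in the numerator, against 109 and 84.7 in the reference. The long noncoding RNA OVAAL had 1.21 and 8.17 in the numerator, against 103 and 99.97 in the reference. The numerator means of all these genes lay under the minimum base mean of 37.2, so they passed it only through the reference. That selection favours negative fold changes among genes close to silent in the numerator. The same holds for FBLN1 and ADAMTS15, given below.

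Genes of the extracellular matrix and its proteases were among the largest falls. FBLN2, a fibulin of elastic fibres and basement membranes, had 70.2 and 29.2 normalised reads in the numerator, against 421 and 488 in the reference. FBLN1, its relative, had 5.45 and 12.8 in the numerator, against 83.5 and 107 in the reference. MMP1, the interstitial collagenase, had 60.5 and 25.7 in the numerator, against 370.1 and 503 in the reference. These 3 fell by 3.16 ± 0.46, 3.45 ± 0.68 and 3.31 ± 0.47 in the authors' deposited table (log2, SE), with adjusted p of 1.08e-08, 0.00014 and 3.48e-09.

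The matrix proteases ADAMTS15, which cuts proteoglycans, and ADAMTS2, which trims procollagen, were lower too. ADAMTS15 had 18.2 and 13.998 normalised reads in the numerator, against 216 and 149 in the reference. ADAMTS2 had 274 and 249.6 in the numerator, against 1211 and 1184 in the reference, with library values close on each side. PXDN, a peroxidase that crosslinks collagen IV, had 85.3 and 56.0 in the numerator, against 508 and 419 in the reference. Of the 24 members of the collagen and fibril list, 0 rose and 2 fell (FBLN1 and FBLN2), beside 0.681% and 0.291% of all genes. The list's median in the authors' deposited table was 0.29, on the other side of 0 from those 2. COL27A1, a collagen outside that list, was called higher, at 1.24 ± 0.32 in the authors' deposited table (log2, SE, adjusted p of 0.0182). Of 15 matrix protease members, 0 rose and 2 fell (MMP1 and ADAMTS15), and the authors' deposited table had a median of 0.25 for them. ADAMTS7 and ADAMTS13, outside that list, were called higher, by 2.24 and 3.02 in the authors' deposited table (log2), with adjusted p of 0.00625 and 0.012. ADAMTS7 had 380 and 141 in the numerator, against 45.3 and 65.9 in the reference. For ADAMTS13 the values were 149 and 38.5, against 10.4 and 12.9.

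PDPN, SEMA3F, TNFRSF1B and NGFR were further falls. PDPN, podoplanin, a mucin-like membrane protein of lymphatic endothelium and motile cells, had 139 and 125 normalised reads in the numerator, against 950.3 and 1054 in the reference. Its fall in the authors' deposited table was -2.92 ± 0.35 (log2, SE), with an adjusted p of 2.43e-13. SEMA3F, a secreted guidance cue that binds neuropilin, had 212 and 142 in the numerator, against 834 and 1042 in the reference. It was the only member called of the 29 in the axon guidance list, beside 0.971% of all genes. TNFRSF1B, a TNF receptor, had 99.3 and 15.2 in the numerator, against 536 and 479 in the reference. NGFR, the low-affinity neurotrophin receptor, had 79.3 and 112 in the numerator, against 327 and 309 in the reference.

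Smaller falls included ID3, an inhibitor of basic helix-loop-helix factors that BMP signals induce, with 1956 and 2774 normalised reads in the numerator, against 4798 and 6577 in the reference. SERPINB2, an inhibitor of plasminogen activators, had 283 and 120.2 in the numerator, against 647 and 676 in the reference. PSMB2, a proteasome core subunit, had 2043 and 3516 in the numerator, against 6280 and 7312 in the reference. Outside these smaller falls, RPL21P16 and HNRNPA1P10, processed copies of other genes, fell by 2.61 and 1.94 on the log2 scale in the authors' deposited table. Their reads can be shared with the parent genes, so both are uncertain.

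Among genes higher in the numerator, DNAH6 and CDCP1 had both numerator libraries far above both reference libraries. DNAH6, a heavy chain of ciliary dynein, had 1353 and 1098 normalised reads in the numerator, against 109 and 87.0 in the reference. Its rise in the authors' deposited table was 3.64 ± 0.36 (log2, SE), with an adjusted p of 1.04e-19. CDCP1, a membrane protein phosphorylated by Src kinases, had 2254 and 2009 in the numerator, against 273 and 112 in the reference. DNAH6, SHISA2 and PDPN were also called by limma with all 4 libraries, with adjusted p of 0.012, 0.0113 and 0.0235.

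**Figure D3:**
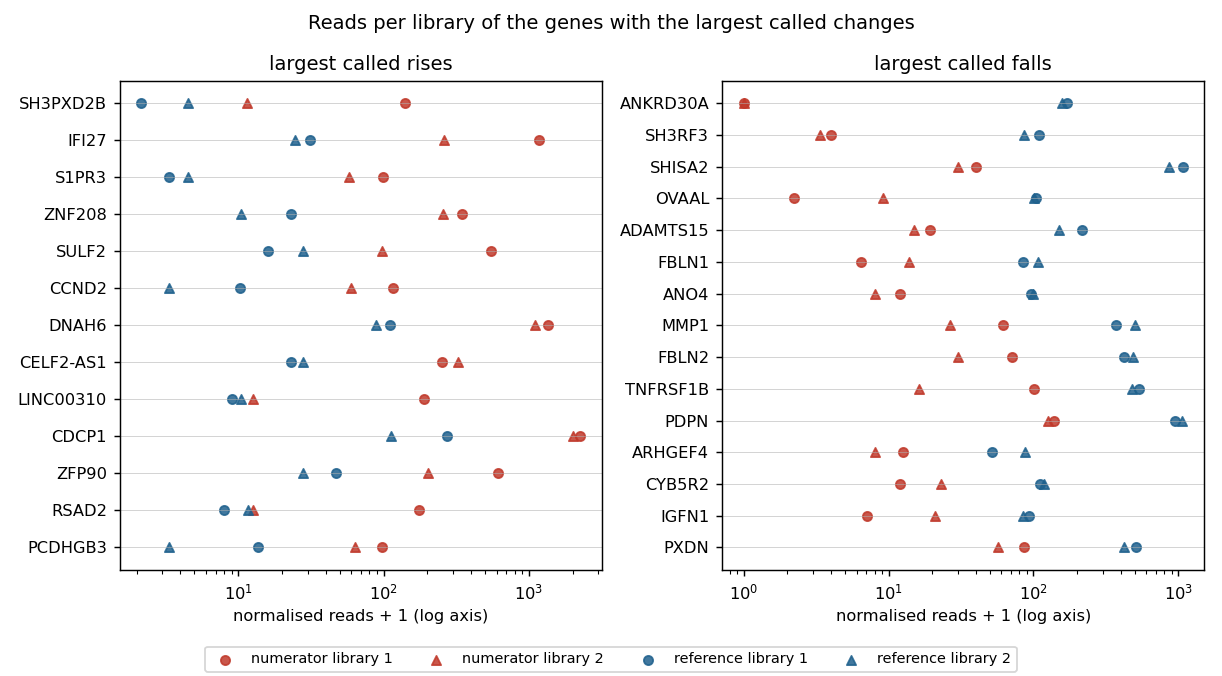
Normalised reads plus 1 (log axis) in each library for genes among the 15 largest called rises and the 15 largest called falls. Sides do not overlap for any gene shown; for RSAD2 and LINC00310, numerator library 2 lies beside the reference libraries at 11.7 reads.

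Other large rises rested on numerator library 1. SH3PXD2B, an adaptor of invasive cell protrusions, had 139 and 10.5 normalised reads in the numerator, against 1.16 and 3.53 in the reference. MAF, a leucine zipper transcription factor, had 154 and 15.2 in the numerator, against 6.96 and 10.6 in the reference. Without numerator library 1, the limma adjusted p was 0.214 for SH3PXD2B and 0.644 for MAF. Other called genes not called by limma in that fit included LINC00310, RSAD2, ADAMTS13, RNF150, ITGA1, TGFBR3, C14orf132, PARP14 and LRP1.

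PLAT, tissue plasminogen activator, was among the most read of the called genes. It had 35358 and 7763 normalised reads in the numerator, against 3886 and 3478 in the reference, and numerator library 1 was the high one. Its log2 fold change was 2.55 ± 0.51 (SE) in the authors' deposited table, with an adjusted p of 0.000299, and 1.08 by limma without numerator library 1 (adjusted p = 0.00941). Of 14 members of the plasminogen activator and serpin list, 1 rose (PLAT) and 1 fell (SERPINB2), beside 0.681% and 0.291% of all genes.

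Interferon-stimulated genes, which interferon signals switch on against viruses, included 2 called rises among 26 members and 0 falls. The shares over all genes were 0.681% called higher and 0.291% called lower. IFI27 had 1174 and 260.1 normalised reads in the numerator, against 30.2 and 23.5 in the reference. RSAD2, the antiviral enzyme viperin, had 175 and 11.7 in the numerator, against 6.96 and 10.6 in the reference. The list's median log2 fold change in the authors' deposited table was 1.29, beside -0.00 over all genes. By library it was 1.99 in numerator library 1 and 0.11 in numerator library 2, each against the mean of the reference libraries. In 20 of the 26 members, library 1 was over 2-fold above library 2. The reference means of IFI27 and RSAD2 were 26.8 and 8.77, under the minimum base mean of 37.2. Both passed it only through the numerator, which favours positive fold changes. MX1 and OAS3, not called, had reference means of 110 and 504, above it. The part of this selection in the list's count and median was not tested.

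Genes of antigen presentation by MHC class II, grouped after their values were seen, included 2 called rises and 0 falls among 6 members. The share called higher over all genes was 0.681%. CD74, the invariant chain that guides class II molecules, had 512 and 723 normalised reads in the numerator, against 96.3 and 131 in the reference. HLA-DRA, an alpha chain, had 136 and 115 in the numerator, against 20.9 and 21.2 in the reference. Both rises were called in the authors' deposited table, with adjusted p of 5.35e-07 for CD74 and 0.00104 for HLA-DRA. CIITA, the master activator of the class, had 287 and 332 in the numerator, against 122 and 133 in the reference, and HLA-DPA1 had 299.6 and 337 in the numerator, against 119.5 and 142 in the reference. The adjusted p of each was 0.0928 in the authors' deposited table, and HLA-DPB1 had a log2 fold change of -0.17. HLA-DMA had a log2 fold change of 0.77, with an adjusted p of 0.664 in the authors' deposited table. Of 14 members of the class I presentation list, 0 were called and 0 had an unadjusted p under 0.05.

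The clustered protocadherins of the gamma and beta groups, also grouped after their values were seen, had 15 members that reached 2 CPM. Of these, 6 rose, 0 fell and 15 had positive fold changes in the authors' deposited table, where 0.681% of all genes were called higher. The broader protocadherin list, which also holds FAT and other members, had 2 rises and 0 falls among 14 members, and its median fold change (log2) was 0.95, also from the authors' deposited table. PCDHGA1 had 237 and 109.7 normalised reads in the numerator, against 16.2 and 28.2 in the reference. PCDHGB3 had 96.8 and 63.0 in the numerator, against 12.8 and 2.35 in the reference. PCDHB13 had 145 and 47.8 in the numerator, against 16.2 and 10.6 in the reference. The reference means of PCDHGA1, PCDHGB3 and PCDHB13 were 22.2, 7.56 and 13.4, under the minimum base mean of 37.2. Such genes passed the minimum only through the numerator, which favours positive fold changes. The shared sign and the median of the set are therefore no independent evidence of a rise. Gamma protocadherins share their last exons, so reads could be split between them and each gene is uncertain. The median of the 15 in the authors' deposited table was 2.10, with 2.35 in numerator library 1 and 1.63 in numerator library 2 against the reference mean.

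Of 414 zinc finger genes with ZNF symbols, grouped after their values were seen, 5 rose and 0 fell, beside 0.681% and 0.291% of all genes. The count was not tested against those shares, so it is no result about the family. Fold changes of the 414 in the authors' deposited table were positive for 318 and negative for 96, with a median of 0.28 (log2). Over all genes, 6515 were positive and 6560 negative. ZNF208 had 347 and 257 normalised reads in the numerator, against 22.05 and 9.41 in the reference.

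Of 18 basement membrane members, 2 rose (LAMA1 and LAMA4) and 0 fell, beside 0.681% and 0.291% of all genes. LAMA1 had 812 and 794 normalised reads in the numerator, against 316 and 209 in the reference. LAMA4 had 1964 and 1988 in the numerator, against 840.1 and 582 in the reference. Among other rises, NOTCH3, a receptor of mural cells, had 1673 and 428 in the numerator, against 222 and 126 in the reference. TGM2, a transglutaminase that crosslinks matrix proteins, had 18907 and 16299 in the numerator, against 8019 and 7204 in the reference.

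Single genes with roles in pigment and lipid handling were also called. DCT, an enzyme of melanin synthesis, had 322 and 303 normalised reads in the numerator, against 81.2 and 54.1 in the reference, and was the 1 called member of the melanocyte list. The summed level of the 5 of its 8 genes with recovered reads was 43.5 and 36.3 CPM in the numerator, against 41.7 and 27.9 in the reference, with SOX10 at a base mean of 0.0558 CPM. MITF, the list's other member that reached 2 CPM, went the other way. It had 21.1 and 19.4 CPM in the numerator, against 35.6 and 23.8 in the reference. Its log2 fold change in the authors' deposited table was -0.60, with an adjusted p of 0.665. LIPG, endothelial lipase, had 484 and 117 in the numerator, against 71.9 and 29.4 in the reference. ABCA1, the cholesterol exporter, had 1518 and 906 in the numerator, against 450.2 and 225 in the reference. Of 23 fatty acid and triglyceride synthesis members, 0 were called and 2 had an unadjusted p under 0.05.

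Cell division genes were lower in numerator library 1 than in the other 3 libraries. Of 24 mitosis members, 0 were called and 4 had an unadjusted p under 0.05, and of 24 DNA replication members, 0 were called and 2 had one. Their medians in the authors' deposited table were -0.60 and -0.55. Against the reference mean, the mitosis median was -2.07 in numerator library 1 and 0.11 in numerator library 2, and the DNA replication median was -1.81 and 0.05. CDC20, an activator of the anaphase ubiquitin ligase, had 1301 and 5657 normalised reads in the numerator, against 7414 and 8642 in the reference. TYMS, thymidylate synthase, had 1209.8 and 3128 in the numerator, against 4174 and 4481 in the reference.

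Ribosomal protein and proteasome lists had negative medians. All 28 ribosomal members had negative fold changes in the authors' deposited table, with a median of -0.44, 0 called and 3 with an unadjusted p under 0.05. For 28 proteasome members the median in the authors' deposited table was -0.51, with 1 fall (PSMB2), beside 0.291% of all genes called lower. The reference libraries differed on the same genes: the ribosomal median was -0.45 in reference library 1 over reference library 2. Numerator library 2 had a ribosomal median of -0.09 against reference library 1 and -0.54 against reference library 2. The integrins showed the opposite sign, with medians of 0.20 and 0.93 in the same 2 contrasts. Among 14 integrin members there was 1 called rise, ITGA1, beside 0.681% of all genes called higher. The part of the reference difference in these medians was not tested.

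**Figure D4:**
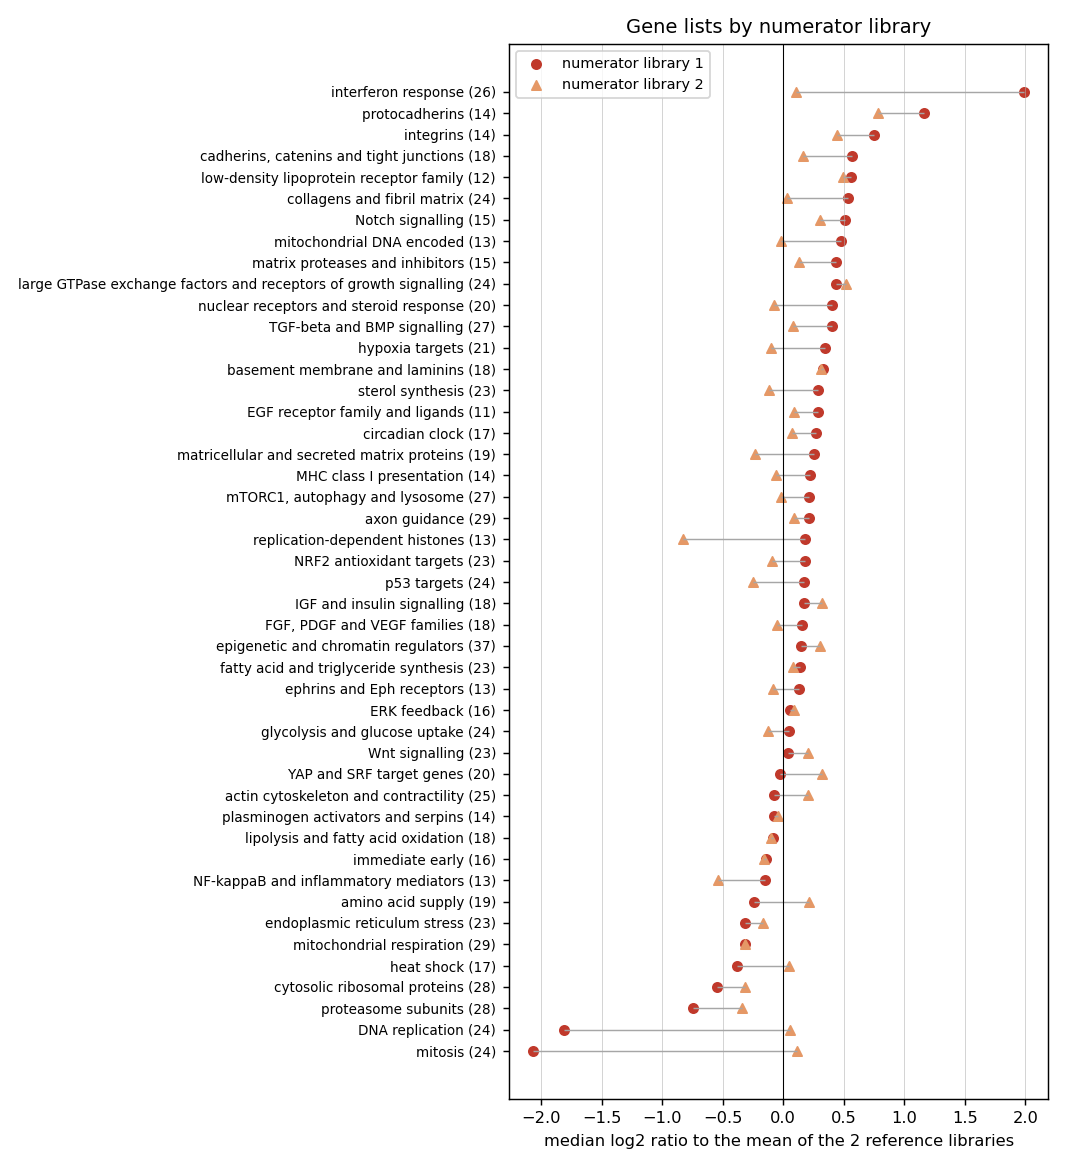
Median log2 ratio to the mean of the 2 reference libraries for gene lists with at least 10 members, in numerator library 1 (circles) and numerator library 2 (triangles), with the number of members in brackets. The libraries are furthest apart for mitosis (-2.07 and 0.11), DNA replication (-1.81 and 0.05) and interferon response (1.99 and 0.11).

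The same numerator stands in the first comparison and the same reference in the fourth, so their values are not independent of the second. SHISA2 had log2 fold changes of -4.80 in the second comparison, 0.13 in the first and -4.41 in the fourth of the authors' deposited table. PDPN had -2.92, 0.03 and -4.39 in the authors' deposited table in the same order. DNAH6 had 3.64, 0.06 and 2.50 in the authors' deposited table. In CPM, SHISA2 was at 2.27 and 1.51 in the numerator and at 57.2 and 45.0 in the reference, and it stayed under 3 in the other 4 libraries. DNAH6 was at 78.2 and 57.0 in the numerator, 34.7 and 33.1 in the numerator of the fourth comparison, 74.9 and 49.4 in the reference of the first, and 5.84 and 4.55 in the reference of the second. PLAT was at 2043 and 403 in the numerator, 169 and 188 in the numerator of the fourth, 839 and 292 in the reference of the first, and 208 and 182 in the reference of the second.

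**Figure D5:**
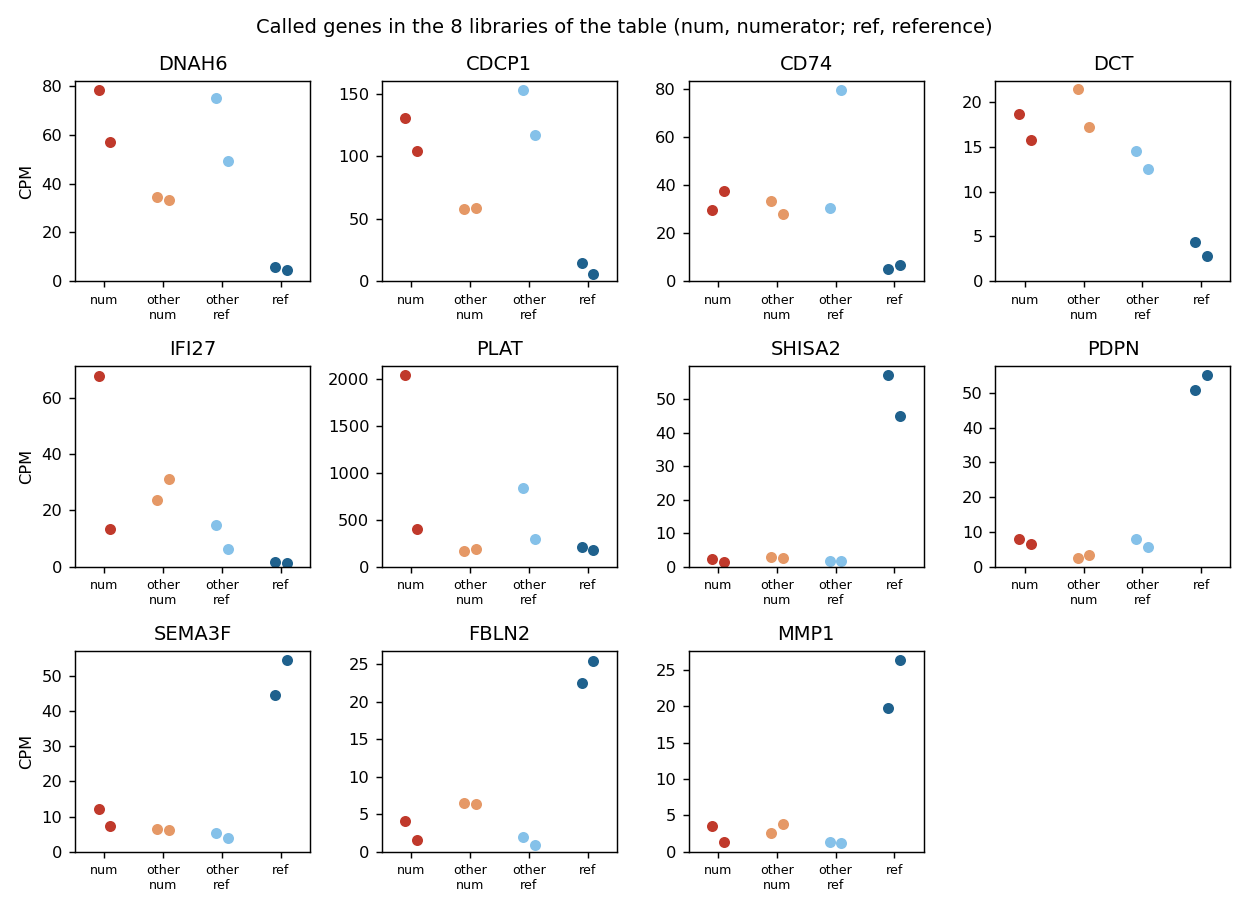
CPM in the 8 libraries of the table for called genes: the numerator, the numerator of the fourth comparison (other num), the reference of the first comparison (other ref) and the reference. The reference is highest for SHISA2, PDPN, SEMA3F, FBLN2 and MMP1 and lowest for DNAH6, CDCP1, CD74, DCT and IFI27, while PLAT is highest in numerator library 1.

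In the first comparison, 10 of 13009 genes of at least 2 CPM were called (0.0769%), and in the fourth 6390 of 13599 (47%). The median standard error in the authors' deposited table was 0.38 in the second comparison, 0.36 in the first and 0.24 in the fourth.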

How the data were processed

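The authors deposited 1 table with 4 unnamed comparisons. Per the file headers, each gives a base mean (normalised reads averaged over libraries), a log2 fold change, its standard error and a test statistic (scores), a p-value and an adjusted p-value. Per the labels, a commercial service did the sequencing and selected genes by an unadjusted p under 0.05 and a log2 fold change beyond 1 either way. Aligner, counter and genome build were not given in the sources used here.

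Size factors (1.65 and 0.857 in the numerator, 0.862 and 0.850 in the reference) and whole reads were recovered by lattice decoding of the deposited base means for all 26755 genes present in the 4 comparisons. The largest relative residual was 1.1e-09. The steps were tested on simulated data. Members and the 60 gene lists were chosen with earlier results of these data known, and 8 symbols were written as the table has them. Main calls are the deposited adjusted p under 0.05. Alternatives used limma 3.58.1 on log2 CPM with a prior count of 0.5, all libraries or 1 left out, with Benjamini-Hochberg adjustment. Named genes are the 15 largest called rises and falls, the 10 smallest p and up to 4 members per list with the smallest p, given in part; other called genes are named as examples after their values were seen. Genes named after clones and sex-telling genes were left out, and some items are not reported here. Counting error is the only error that the depth sets. No sequence is printed.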

Additional observations from a re-analysis of the deposited data

How the results depend on the processing

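The 127 called genes (89 higher, 38 lower) were 715 (514 and 201) under the selection stated in the labels, 80 (55 and 25) at an adjusted p under 0.01, and 74 (50 and 24) at a minimum of 10 CPM. Limma on the recovered reads gave 5 (3 and 2). Leaving out 1 library with limma gave 0 to 3409 called genes, 0 to 1607 higher and 0 to 1802 lower; the cause was not tested. A fold change over 1, both other adjustments, centring, no minimum and a minimum of 1 CPM kept the counts within 1.5-fold. The 25 called list members stayed within 1.5-fold under centring and both minimums, where they reached them. That outcome was fixed in advance. A minimum leaves a deposited fold change as it is, and centring moves each by the median of all genes, -0.00. RSAD2, PCDHGA1 and PCDHB13, with base means of 2.74, 5.25 and 2.96 CPM, lie under the minimum of 10 CPM. Without numerator replicate 1, TNFSF15 (-3.58, with 0 numerator reads left, so set by the prior count) and PRSS35 (-1.57) reversed, and RANBP3L (-0.98) and RPL21P119 (-1.96), not called in that fit, also changed sign; over the fits that leave out 1 library, TNFSF15 and PRSS35 spanned -3.58 to 8.30 and -1.57 to 7.66 (log2). Without numerator library 1, 41 of 121 called genes had a log2 fold change smaller by over 1.5-fold and 5 a larger one. No paired analysis was possible because no column carries the labels' replicate numbers. With 2 libraries a side, outlying samples cannot be tested, and 16106644 reads was the lowest depth.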
